A study of Homo sapiens with 6 samples.

Results

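Genes of the mitochondrial respiratory chain and of ATP synthase were followed in the near-haploid human line HAP1, of chronic myeloid leukaemia origin, in which many genes had been knocked out in parallel with pooled CRISPR guides. The members were taken by gene name: every guide RNA whose gene name begins with NDUF, with COX and a digit, with UQCR or with ATP5, and every guide to SDHA, SDHB, SDHC, SDHD, ACAD9 or FOXRED1. These rules gave 508 of the 71626 guides counted, for 52 gene names. Of these, 50 had 10 guides each, COX6C had 7 and the readthrough gene NDUFC2-KCTD14 had 1. The 51 genes with at least 3 guides were tested, and all 508 guides passed the filter on low library counts. By complex, 16 genes belonged to complex I, 4 to complex II, 4 to complex III, 19 to complex IV and 7 to complex V, and NDUFA4L2, a paralogue of NDUFA4, was put in none.

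The screen compared parental HAP1 cells with SETD2-mutant HAP1 cells, to find genes whose loss is tolerated differently when SETD2, the histone H3 lysine methyltransferase, is mutated. It held 6 samples: the guide library, the parental line and the SETD2-mutant line, with 2 each. Both cell lines were infected with lentivirus carrying the guides at a multiplicity of infection of 0.7, selected with puromycin and grown for 12 doublings, and the guides were then read from genomic DNA. The replicates of a line came from 1 infected population that was split afterwards. The guide tests took their spread from all 6 samples together, the library included. The gene p-values score how consistently the guides of a gene rank among all guides. Neither covers the spread between separate infections. The labels name 1 mutant genotype without saying how many clones it held, so an effect of SETD2 loss and a difference between clones cannot be told apart.

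The respiratory chain passes electrons to oxygen and pumps protons across the inner mitochondrial membrane. Complex I takes electrons from NADH and complex II from succinate; both hand them to coenzyme Q, from which complex III and then complex IV carry them on, while complex V uses the proton gradient to make ATP. Complex II is also an enzyme of the citric acid cycle and pumps no protons. In a knockout screen, a gene that cells need for growth loses its guides with time.

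A sample's total ranged from 25082426 to 38428425 counts, and between 0 and 2 of the member guides were at 0 in any sample. Levels are in CPM, counts scaled to a common library size and averaged over the guides of a gene. The change of a gene is given as the mean log2 fold change of its guides, with the standard error (SE) over guides. A gene was called depleted or enriched where edgeR's guide tests, combined by robust rank aggregation (RRA), gave a Benjamini-Hochberg adjusted p below 0.05 over all 7090 genes. SETD2 served as the check of the labels: its guides were depleted in parental cells (log2 change -1.12, SE 0.308, adjusted p = 0.000293 by edgeR with RRA). The mutant line gave -0.61 for SETD2, which did not pass, and the difference between lines was 0.50 (adjusted p = 0.00629 by edgeR with RRA).

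Guides to complex I genes were scarcer in SETD2-mutant than in parental cells, and for 9 of the 16 genes the difference passed the test. None of the 16 was enriched by edgeR with RRA, also at an unadjusted p below 0.05, and limma on means per gene called 16 depleted and 0 enriched (24.4% and 14.6% of all genes). Among all 7090 genes, 1.28% were called depleted and 1.03% enriched in this comparison. The median over the 16 genes was -1.29 on the log2 scale, against -0.04 over all genes, and the gene values ran from -1.85 for NDUFC2 to -0.43 for NDUFC1. All 16 gene values were below 0. By log2 CPM averaged over guides, both SETD2-mutant samples lay below both parental samples in all 16, an arrangement found in 38.9% of all genes. By mean CPM, NDUFB1 went the other way, at 9.98 and 11.66 CPM in parental and 12.29 and 12.21 CPM in SETD2-mutant samples. Of the 160 guides, 90 were down by edgeR at an adjusted p below 0.05 (12.8% of all guides were) and 6 were up (11.5% of all guides).

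The 14 complex I subunits in the table are supernumerary subunits, which build the complex around its catalytic core, and 7 of them were depleted. NDUFC2, a subunit of the membrane arm encoded at chr11:78068297-78079862 (GRCh38), had the lowest mean change. Its guides averaged 8.48 and 8.00 CPM in the library samples, 4.45 and 4.59 CPM in parental and 2.09 and 2.44 CPM in SETD2-mutant cells. The groups did not overlap, and all 10 guides were lower in the mutant line. The change between lines was -1.85 (SE 0.389, adjusted p = 0.000442 by edgeR with RRA), a 3.61-fold difference. Guide HZD_SRF_24641 showed the lowest change of the 10, with 126 and 122 counts in the library, 26 and 8 in parental and 1 and 0 in SETD2-mutant cells. Guide HZD_SRF_24643 showed the smallest, with 488 and 466, 673 and 584, and 261 and 479 counts in the same order.

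NDUFA1, a membrane arm subunit, averaged 27.6 and 26.5 CPM per guide in the library, 10.1 and 11.03 CPM in parental and 4.05 and 4.14 CPM in SETD2-mutant cells. Its change between lines was -1.33 (SE 0.234, adjusted p = 0.000124 by edgeR with RRA), with all 10 guides down. NDUFA2, a subunit of the matrix arm that oxidises NADH, stood at 16.7 and 17.2, 7.87 and 8.45, and 4.27 and 3.76 CPM per guide in library, parental and SETD2-mutant samples. It fell by 1.35 (SE 0.291, adjusted p = 0.00198 by edgeR with RRA). For both genes the mutant samples lay well under the parental ones, and the parental samples well under the library.

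NDUFA3, another membrane arm subunit, differed from these in parental cells, where its change was small. Its per-sample log2 changes from the library mean were -0.63 and -0.28 in parental and -1.52 and -1.74 in SETD2-mutant cells. Its parental change was not called (adjusted p = 0.617 by edgeR with RRA) but it was depleted between the lines (-1.19, SE 0.334, adjusted p = 0.00208). NDUFA11, also of the membrane arm, had per-sample changes of -1.43 and -1.39 in parental and -2.57 and -2.91 in SETD2-mutant cells. It was depleted between the lines by -1.37 (SE 0.490, adjusted p = 0.0101 by edgeR with RRA).

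NDUFB5 and NDUFB8, both membrane arm subunits, were depleted between the lines. NDUFB5 changed by -0.94 and -1.0 in parental samples and by -2.24 and -2.35 in SETD2-mutant samples, and its difference between lines was -1.43 (SE 0.400, adjusted p = 0.0101 by edgeR with RRA). NDUFB8 changed by -1.14 and -1.32 in parental samples and by -2.74 and -2.76 in SETD2-mutant samples, and its difference was -1.68 (SE 0.586, adjusted p = 0.0468 by edgeR with RRA). The NDUFB5 call was lost without parental replicate 1, and the NDUFB8 call without any 1 of the 4 cell samples, where its adjusted p rose to as much as 0.188.

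The other 7 complex I subunits were not called between the lines, although each had both mutant samples below both parental ones by log2 CPM averaged over guides. Their mean changes were -1.63 for NDUFB6 (adjusted p = 0.0698 by edgeR with RRA), -1.16 for NDUFA13 (0.108), -0.99 for NDUFB11 (0.288), -0.93 for NDUFB3 (0.425), -0.69 for NDUFB4 (0.752), -0.53 for NDUFB1 (0.979) and -0.43 for NDUFC1 (0.572). On leaving out 1 sample, NDUFB11 moved to -0.55 without parental replicate 2 and to -1.53 without SETD2-mutant replicate 1. NDUFB1 moved to -0.28 without parental replicate 2 and to -0.80 without SETD2-mutant replicate 2. NDUFC1, a membrane arm subunit and the mildest of the 16, changed by -1.22 and -1.0 in parental and -1.57 and -1.51 in SETD2-mutant samples. NDUFB6 carried 1 guide that went its own way. Guide HZD_SRF_24608 had 158 and 115 counts in the library, 2528 and 4137 in parental and 62 and 109 in SETD2-mutant cells. Without that guide, left out after its values were seen, NDUFB6 stood at -1.25 (SE 0.401, adjusted p = 0.327 by edgeR with RRA) between the lines.

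ACAD9 and FOXRED1, assembly factors rather than subunits of complex I, were both depleted between the lines. ACAD9 guides averaged 17.2 and 16.3 CPM in the library, 6.96 and 7.97 CPM in parental and 2.41 and 3.25 CPM in SETD2-mutant cells. Its change between lines was -1.52 (SE 0.173, adjusted p = 1.83e-06 by edgeR with RRA), with all 10 guides down. Guide HZD_MET_00093, with the lowest ACAD9 change, had 927 and 760 counts in the library, 152 and 114 in parental and 14 and 27 in SETD2-mutant cells. FOXRED1 guides averaged 24.7 and 24.8, 16.5 and 16.4, and 7.46 and 7.61 CPM in library, parental and SETD2-mutant samples. The change of FOXRED1 between lines was -1.25 (SE 0.194, adjusted p = 0.000124 by edgeR with RRA), again with all 10 guides down. In neither gene did the lines overlap.

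Against the library, the same genes can be read within each line. The parental and SETD2-mutant comparisons share the library samples, so their values are given side by side only. In parental cells 8 of the 16 complex I genes were depleted, where 9.9% of all genes were, and in SETD2-mutant cells 14 were, where 9.06% were. Of the 160 guides, 107 were down by edgeR in parental cells (21.2% of all guides) and 130 in the mutant line (23.8% of all guides). The 2 not called in SETD2-mutant cells were NDUFB1 (-1.62) and NDUFB11 (-2.54, adjusted p = 0.0557 by edgeR with RRA). The median of the 16 genes was -1.19 and -1.17 for the parental line and -2.28 and -2.49 for the SETD2-mutant line.

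Guides with the ID prefix MET were deeper in the library than those with the prefix SRF, with a median library count of 722.5 against 360 among the members. All 4 complex I genes with MET guides were depleted between the lines (NDUFA1, NDUFA2, ACAD9 and FOXRED1), and 5 of the 12 with SRF guides were. Over all genes 1.28% were, and the share by prefix is not given. limma on gene means called all 4 and all 12 depleted (24.4% of all genes). The medians of the MET and SRF genes were -1.34 and -1.18. Loss of ribosomal protein genes was also deeper in the mutant line: the median change of 53 such genes was -3.53 for the parental line and -4.08 for the mutant line. That difference was not tested. Over all genes, 702 were called depleted in parental cells and 642 in the mutant line by edgeR with RRA. With the mutant line's changes scaled to equal ribosomal loss, 8 of the 16 complex I genes were depleted. The share of all genes depleted under that scaling is not given, so this count has no background beside it.

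Complex II went the opposite way, with guides to SDHB and SDHD enriched in SETD2-mutant against parental cells. None of its 4 genes was depleted between the lines by edgeR with RRA, also at an unadjusted p below 0.05. Among all genes, 1.03% were called enriched by that test. limma called 4 enriched and 0 depleted (14.6% and 24.4% of all genes were). The median was 0.71 on the log2 scale, and all 4 values were above 0. By log2 CPM averaged over guides, both SETD2-mutant samples lay above both parental samples in all 4, as in 26.9% of all genes. By mean CPM the lines overlapped for SDHA, at 7.47 and 9.05 CPM in parental and 8.76 and 9.30 CPM in SETD2-mutant samples. Of the 40 guides, 21 were up (11.5% of all guides were) and 1 was down (12.8% of all guides) by edgeR at an adjusted p below 0.05.

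SDHB, the iron-sulfur subunit encoded at chr1:17018722-17054032 (GRCh38), showed the highest change of the 51 genes. Its guides averaged 16.8 and 16.6 CPM in the library, 4.03 and 4.66 CPM in parental and 9.43 and 9.05 CPM in SETD2-mutant cells. Mutant samples thus lay between the parental samples and the library. The change between lines was 1.16 (SE 0.223, adjusted p = 0.000461 by edgeR with RRA), a 2.23-fold difference, with 9 of 10 guides up. Guide HZD_MET_03124, the highest, had 444 and 421 counts in the library, 42 and 74 in parental and 228 and 192 in SETD2-mutant cells. Guide HZD_MET_03122, the lowest, had 1097 and 913, 260 and 305, and 168 and 288 counts.

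SDHD, a membrane anchor subunit, had per-sample log2 changes of -1.87 and -1.99 in parental and -1.65 and -1.55 in SETD2-mutant cells. It was enriched between the lines by 0.32 (SE 0.251, adjusted p = 0.0183 by edgeR with RRA), with 7 of 10 guides up. That call was lost without either library sample or without either SETD2-mutant sample. SDHC, the other membrane anchor, stood at -2.08 and -2.12 in parental and -1.40 and -1.36 in SETD2-mutant samples, and all 10 guides were higher in the mutant line. Its change of 0.73 (SE 0.190) was not called (adjusted p = 0.116 by edgeR with RRA). It was called without parental replicate 1, without parental replicate 2 and without SETD2-mutant replicate 1, with adjusted p of 0.0129, 0.0190 and 0.0389. SDHA, the flavoprotein that oxidises succinate, stood at -1.97 and -1.95 in parental and -1.41 and -1.11 in SETD2-mutant samples. Its change of 0.69 (SE 0.335) was not called (adjusted p = 0.547 by edgeR with RRA).

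All 4 complex II genes were depleted in parental cells against the library (9.9% of all genes were), with means between -2.16 for SDHB and -1.94 for SDHD. In SETD2-mutant cells SDHC (-1.38) and SDHD (-1.61) were depleted (9.06% of all genes were). SDHA at -1.25 (adjusted p = 0.055 by edgeR with RRA) and SDHB at -1.01 (adjusted p = 0.111) were not called there. The median of the 4 genes was -2.03 and -1.99 for the parental line and -1.40 and -1.24 for the SETD2-mutant line.

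None of the 4 complex III genes was called between the lines by edgeR with RRA. At an unadjusted p below 0.05, none was lower and 1 was higher, against 536 and 485 of all 7090 genes. limma on gene means called 1 enriched (14.6% of all genes were enriched by limma). The median was 0.08, with values from -0.21 for UQCRC1 to 0.25 for UQCR11. UQCRC1, a core protein of the complex, had changes of -2.36 and -2.67 in parental and -2.75 and -2.64 in SETD2-mutant samples, so the lines overlapped. UQCRFS1, the Rieske iron-sulfur protein, stood at -2.99 and -2.63 in parental and -2.39 and -2.96 in SETD2-mutant samples, overlapping likewise. Both genes were depleted against the library in each line, with adjusted p of 2.66e-06 and 1.58e-05 in parental and 4.55e-06 and 0.00441 in SETD2-mutant cells by edgeR with RRA.

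Of the small complex III subunits, UQCR10 stood at -1.04 in parental and -1.01 in SETD2-mutant cells and was called in neither line. UQCR11 was not lost in any sample, with changes of 0.17 and 0.17 in parental and 0.41 and 0.42 in SETD2-mutant samples. Scaling to the dummyguide controls moved its mutant value to -0.50. The parental and mutant samples of UQCR11 did not overlap, but neither its difference between lines nor its change in either line was called by edgeR with RRA. limma on gene means called UQCR11 enriched between the lines, in parental and in SETD2-mutant cells (adjusted p = 0.0117, 0.0358 and 0.000278 by limma). Over all genes limma called 14.6%, 25.5% and 25.3% enriched in these comparisons.

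Complex IV, cytochrome c oxidase, was mixed. COX4I1, COX6A1, COX7A2L and COX18 were depleted between the lines, 4 of 19 genes, and none was enriched (1.28% and 1.03% of all genes were). At an unadjusted p below 0.05 by edgeR with RRA, 6 were lower and none higher, against 536 and 485 of all 7090 genes. limma on means per gene gave 9 depleted and 0 enriched, against 24.4% and 14.6% of all genes. The median was -0.22, and 16 of the 19 values were below 0. By log2 CPM averaged over guides, both SETD2-mutant samples lay below both parental samples in 11 genes (38.9% of all genes). They lay above them in 2 (26.9% of all genes). Without any 1 of the samples other than parental replicate 2, 2 of the 4 calls were left.

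COX4I1, the ubiquitous isoform of subunit 4, is encoded at chr16:85799695-85807068 (GRCh38) and had the lowest change of complex IV. Its guides averaged 25.03 and 24.6 CPM in the library, 11.4 and 12.2 CPM in parental and 4.19 and 4.46 CPM in SETD2-mutant cells. The samples of the lines stood far apart, and all 10 guides were lower in the mutant line. The change between lines was -1.62 (SE 0.309, adjusted p = 0.000764 by edgeR with RRA), a 3.08-fold difference. Guide HZD_MET_01103, the lowest, had 975 and 793 counts in the library, 608 and 520 in parental and 53 and 35 in SETD2-mutant cells. Guide HZD_MET_01106, the least changed, had 896 and 868, 337 and 451, and 208 and 225 counts.

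COX6A1, the ubiquitous isoform of subunit 6A, was not lost from parental cells. Its per-sample changes were 0.18 and 0.10 in parental and -0.47 and -0.25 in SETD2-mutant samples. The difference of -0.49 (SE 0.318) passed the test narrowly (adjusted p = 0.0465 by edgeR with RRA), with 6 of 10 guides down, and the call was lost on leaving out any 1 of the 6 samples. The remaining 5 subunit genes outside the isoform group were not called between the lines. Their changes were -0.58 for COX6B1, -0.33 for COX7B, -0.22 for COX7C, -0.13 for COX6C and 0.15 for COX8A. COX7B moved to -0.22 without parental replicate 2 and to -0.88 without SETD2-mutant replicate 2. COX6B1, COX7B and COX7C, all small nuclear-encoded subunits, were depleted against the library in each line, at -1.94, -1.93 and -1.96 in parental and -2.52, -2.26 and -2.18 in SETD2-mutant cells. COX6C was depleted in the mutant line (-1.87), while its parental value of -1.75 was not called (adjusted p = 0.110 by edgeR with RRA), and COX8A was called in neither.

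COX7A2L, a factor for joining complexes III and IV into supercomplexes, was the 1 member enriched in parental cells, where 1.07% of all genes were enriched. The gene lies at chr2:42335559-42368957 (GRCh38), and its guides averaged 13.01 and 13.1 CPM in the library, 35.5 and 33.4 CPM in parental and 16.6 and 15.1 CPM in SETD2-mutant cells. Parental samples were thus well above all others, with mutant samples a little above the library. The change was 1.29 (SE 0.188, adjusted p = 0.000316 by edgeR with RRA) in parental cells, with all 10 guides up, and 0.18 in SETD2-mutant cells, which was not called. Between the lines it was -1.11 (SE 0.227, adjusted p = 0.00211), with all 10 guides down. Without SETD2-mutant replicate 2 the call between lines was lost (adjusted p = 0.0866). Guide HZD_SRF_08831, with the lowest change, had 462 and 397 counts in the library, 2285 and 2326 in parental and 406 and 425 in SETD2-mutant cells. Guide HZD_SRF_08827, with the smallest change, had 330 and 284, 363 and 346, and 194 and 340 counts.

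Among the other assembly factors of complex IV, COX18, which inserts the mitochondrially encoded subunit COX2 into the membrane, was depleted between the lines. Its per-sample changes were -0.62 and -0.78 in parental and -1.54 and -1.54 in SETD2-mutant samples, with no overlap. The difference was -0.83 (SE 0.279, adjusted p = 0.0121 by edgeR with RRA), with 9 of 10 guides down. That call was lost without either library sample, without parental replicate 1 or without SETD2-mutant replicate 1. COX11, which delivers copper to the complex, stood at -0.83 between the lines and was not called (adjusted p = 0.0773), nor was the assembly factor COX14 at -1.0 (adjusted p = 0.834).

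COX10 and COX15, the enzymes of heme A synthesis, were depleted in both lines against the library. COX10 stood at -1.86 in parental and -1.87 in SETD2-mutant cells, and COX15 at -2.03 and -2.48. Their differences between lines, -0.01 and -0.45, were not called. That of COX15 moved to -0.27 without parental replicate 1 and to -0.72 and -0.98 without SETD2-mutant replicate 1 and 2. COX20, a chaperone of COX2, was depleted at -1.57 and -1.58, and COX16, another assembly factor, was called in no comparison (-0.10 between the lines).

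COX4I2, COX7A1, COX7B2 and COX8C encode isoforms expressed in restricted tissues. COX7A1, the muscle isoform of subunit 7A and the highest of complex IV between the lines (0.18), stood at -0.13 and 0.05 in parental and 0.14 and 0.15 in SETD2-mutant samples. None of the 4 was called by edgeR with RRA in any of the 3 comparisons. Between the lines none passed an unadjusted p below 0.05 and limma called none. Against the library 1 had an unadjusted p below 0.05, in SETD2-mutant cells, and limma called 2 depleted and 1 enriched in each line. Over all genes limma called 32% depleted and 25.5% enriched in parental cells, and 39.1% and 25.3% in the mutant line. Their means against the library lay between -0.42 and 0.38 in parental cells and between -0.58 and 0.51 in SETD2-mutant cells.

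Of the 7 complex V genes, 4 were depleted in parental cells (9.9% of all genes were) and 3 in the mutant line (9.06% of all genes). None was called between the lines by edgeR with RRA. At an unadjusted p below 0.05, 1 was lower, against 536 of all 7090 genes. limma on gene means called 3 depleted (24.4% of all genes were depleted by limma). The median was -0.12, with values from -0.54 for ATP5J2 to 0.07 for ATP5G3. ATP5A1 (now ATP5F1A), the alpha subunit of the catalytic F1 part, averaged 17.6 and 17.4 CPM per guide in the library, 3.87 and 3.67 CPM in parental and 3.25 and 3.01 CPM in SETD2-mutant cells. Its mean log2 changes against the library, -3.60 (SE 0.780) and -3.63 (SE 0.623), were the lowest of all 51 genes in each line. The difference between lines was -0.03 (SE 0.326).

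ATP5B, the beta subunit of F1, was depleted in parental (-2.26) and SETD2-mutant cells (-2.65), with a difference of -0.39 that was not called. ATP5C1, the gamma subunit of F1, was depleted in parental cells (-1.69). In SETD2-mutant cells its change of -2.0 narrowly missed the threshold (adjusted p = 0.0546 by edgeR with RRA). ATP5J2, subunit f of the membrane part Fo, stood at -1.78 and -2.04 in parental and -2.38 and -2.34 in SETD2-mutant samples, without overlap. It was depleted in each line, and its difference of -0.54 was not called (adjusted p = 0.572 by edgeR with RRA) and was -0.31 without parental replicate 1. ATP5G1, ATP5G2 and ATP5G3 all encode subunit c of Fo, so that losing 1 leaves the others. None of these 3 was called in any comparison by edgeR with RRA, none had an unadjusted p below 0.05, and limma called 1 depleted and 2 enriched in parental cells, 1 and 1 in the mutant line and 0 between the lines, beside the shares of 32% and 25.5%, and 39.1% and 25.3%, over all genes. Their means against the library lay between -0.31 and 0.38. ATP5G3, the highest of the complex, stood at 0.31 and 0.27 in parental and 0.36 and 0.36 in SETD2-mutant samples.

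Set side by side, the medians of the 5 complexes were all below 0 against the library. Medians in parental cells were -1.18 for complex I, -2.02 for II, -1.76 for III, -0.82 for IV and -1.69 for V. In SETD2-mutant cells they were -2.45, -1.31, -1.85, -1.58 and -2.0 in the same order. These medians include the isoform genes. Without the 3 subunit c genes, complex V stood at -2.07 in parental cells and at -2.53 in the mutant line. Within complex IV, the 7 subunit genes outside the isoform group stood at -1.75 in parental and -2.18 in SETD2-mutant cells. Its 8 assembly factors, COX7A2L among them, stood at -1.20 and -1.70, and its 4 isoforms at -0.16 and -0.08. The order of the medians was not tested. Over all 51 genes, 13 were depleted and 2 enriched between the lines (1.28% and 1.03% of all genes were). In parental cells 26 were depleted (9.9% of all genes), and in the mutant line 32 were (9.06% of all genes). limma on means per gene called 43 depleted in parental cells (32% of all genes) and 44 in the mutant line (39.1% of all genes). None was enriched in SETD2-mutant cells by edgeR with RRA, where 1.1% of all genes were; none had an unadjusted p below 0.05 in that direction, and limma on gene means called 4 (25.3% of all genes).

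NDUFA4L2 stood at -0.09 in parental and -0.56 in SETD2-mutant cells and was not called in any comparison. Its difference between lines was -0.47, and -0.27 without parental replicate 1. The single guide of NDUFC2-KCTD14, a readthrough that overlaps NDUFC2, was not tested as a gene. It had 736 and 675 counts in the library, 525 and 436 in parental and 189 and 345 in SETD2-mutant cells.

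Genes around the chain were read from 6 lists. Over all 7090 genes, 1.28% were depleted and 1.03% enriched between the lines by edgeR with RRA. At an unadjusted p below 0.05, 536 were lower, and limma on gene means called 24.4% depleted. Against the library, edgeR with RRA called 9.9% depleted in parental cells and 9.06% in the mutant line. These shares stand beside the counts of every list. Of the assembly factors of complex I outside the naming rule, 5 of 13 listed were measured and none was called between the lines by edgeR with RRA (1 was lower at an unadjusted p below 0.05, and limma called 2 depleted). Their median was -0.14, and 2 were depleted in each line against the library. Of the assembly factors of complexes II to V with cytochrome c, 7 of 29 were measured and none was called between the lines (2 lower at an unadjusted p below 0.05 by edgeR with RRA, 5 depleted by limma). Their median was -0.47, with 4 depleted in parental and 5 in SETD2-mutant cells.

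Of the genes for coenzyme Q synthesis and electron entry, 7 of 22 were measured and 1 was enriched between the lines: DHODH, the pyrimidine synthesis enzyme that passes its electrons to coenzyme Q. DHODH was depleted in parental cells (-1.59, SE 0.173), while the mutant value of 0.14 (SE 0.190) was not called. The difference was 1.74 (SE 0.0977, adjusted p = 1.3e-12 by edgeR with RRA), with all 10 guides up. COQ2, of coenzyme Q synthesis, went the other way at -1.06 (SE 0.270) and was not called between the lines (adjusted p = 0.402 by edgeR with RRA). It was depleted in the mutant line (-2.43). In each line 1 of the 7 genes was depleted against the library. limma called 3 depleted and 1 enriched between the lines (14.6% of all genes were enriched by limma). The median of the 7 genes was -0.0022.

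Of the genes for expression of mitochondrial DNA, 5 of 41 were measured, 4 were depleted in parental and all 5 in SETD2-mutant cells. MTO1, which modifies mitochondrial transfer RNAs, was the 1 gene depleted between the lines (-1.25, SE 0.278, adjusted p = 0.0023 by edgeR with RRA). The median of the 5 was -0.90. Of the iron-sulfur and lipoate assembly genes, 5 of 21 were measured and none was called between the lines (2 lower at an unadjusted p below 0.05 by edgeR with RRA, 2 depleted by limma). Their median was -0.33, and 4 were depleted in each line.

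All 9 listed carriers and channels for adenine nucleotides and phosphate were measured, and 3 were depleted between the lines. VDAC1 and VDAC2, channels of the outer mitochondrial membrane, changed by -1.16 (SE 0.224, adjusted p = 0.000124 by edgeR with RRA) and -1.46 (SE 0.316, adjusted p = 0.0114). SLC25A3, the phosphate carrier of the inner membrane, changed by -1.87 (SE 0.952, adjusted p = 0.0139), with 6 of 10 guides down. The adenine nucleotide carriers SLC25A4, SLC25A5, SLC25A6 and SLC25A31 were not called, at -0.14, 0.10, 0.32 and -0.18. The median of the 9 genes was -0.18.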

How the data were processed

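The authors deposited 1 table of raw guide counts for all 6 samples, with guide IDs and gene names. The submitters' processing notes name MAGeCK and the genome build hg38, without a role, and the aligner is not given in the sources used here. Reads were 75 bases long, per the labels' protocols. Raw counts were analysed in R 4.3.3. Guides whose mean count over the library samples reached 30 were scaled by TMM and fitted over all 6 samples with edgeR 4.0.16 (glmQLFit, robust, with glmQLFTest). Guides were combined to genes with at least 3 guides by robust rank aggregation (rank share up to 0.25, exact null distribution), with Benjamini-Hochberg adjustment over all genes in each direction and a threshold of 0.05. Per-sample log2 changes are means over guides of log2 CPM with a prior count of 2, minus the mean of the library samples. Alternatives included DESeq2 1.42.0 per guide and limma 3.58.1 on gene means. The tests were also run on simulated counts drawn independently for each sample. Those counts held no spread between infections or clones, so that run cannot speak to it. The numbers of the replicates are not stated to pair samples. The filter left 71570 of 71626 guides. The members and lists were chosen with earlier results of these data known. Values in every sample are given for genes called between the lines and for the lowest and highest gene of each complex, and from the lists the called genes were named. Guides printed are those of a gene with the lowest and the highest change between the lines. Gene names and coordinates were matched to RefSeq's GRCh38.p14 table, 44 by symbol and 8 by synonym. Counting precision is limited by depth, and guide reads carry no molecular identifiers. The replicates of the cell lines differed by more than counting noise. Their chi-square per degree of freedom was 14.1 for parental and 12.9 for SETD2-mutant samples, against 1.37 for the library.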

Additional observations from a re-analysis of the deposited data

Results flagged for a closer look

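The following genes changed differently in the 2 cell lines by the test of the difference itself, edgeR with RRA at an adjusted p below 0.05, with log2 values given for SETD2-mutant against parental cells. In complex I these were NDUFC2 (-1.85), NDUFB8 (-1.68), ACAD9 (-1.52), NDUFB5 (-1.43), NDUFA11 (-1.37), NDUFA2 (-1.35), NDUFA1 (-1.33), FOXRED1 (-1.25) and NDUFA3 (-1.19). In complex IV they were COX4I1 (-1.62), COX7A2L (-1.11), COX18 (-0.83) and COX6A1 (-0.49). In complex II SDHB (1.16) and SDHD (0.32) differed in the other direction. COX7A2L was set apart from the other lowered genes by its enrichment in parental cells.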

How the results depend on the processing

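The calls between lines were recomputed under 18 alternatives; equal ribosomal gene loss, 1 of them, was run between the lines only. The calls between lines of ACAD9, COX4I1, FOXRED1, NDUFA1, NDUFA2, NDUFA3, NDUFA11 and SDHB were kept under all 18. NDUFC2 lost its call under an RRA limit of 0.1 (adjusted p = 0.243 by edgeR with RRA), COX7A2L under 1 alternative, NDUFB5 under 3, SDHD under 6, NDUFB8 under 7, and COX6A1 and COX18 under 8 each. limma on gene means and summed counts per gene do not use the spread between guides and called more genes. Over all genes, limma called 24.4% depleted and 14.6% enriched between the lines. For the other alternatives the share of all genes called is not given, so their counts of members have no background beside them. Between the lines, 29 members were depleted with limma and 25 with summed counts, against 13, and 9 to 12 on leaving out 1 sample. Complex I had 16 and 15 depleted, against 9, and 7 to 9 on leaving out 1 sample. Members enriched between the lines numbered 5 with limma, 6 with summed counts, 1 with scaling to the dummyguide controls and 1 with only the 2 cell groups fitted, against 2, and 1 to 3 on leaving out 1 sample. In parental cells 43 members were depleted with limma, 42 with summed counts and 14 with the RRA limit of 0.1, against 26, and 26 to 27 on leaving out 1 sample, while 5 and 4 were enriched with limma and summed counts, against 1. In SETD2-mutant cells the RRA limit of 0.1 gave 21 depleted, against 32, and 31 to 34 on leaving out 1 sample, and limma and summed counts gave 4 enriched each. Summed counts turned the change between lines of NDUFB1 (0.19), COX15 (0.21), ATP5B (0.21), ATP5C1 (0.0687) and ATP5J2 (0.0538), and of NDUFB6 in parental cells (0.42). Equal ribosomal gene loss turned UQCRC1 (0.15) and gave 11 members depleted and 3 enriched between the lines. Leaving out 1 sample gave UQCRC1 values from -0.31 to 0.0261, the latter without parental replicate 1. Scaling to the dummyguide controls, which moved the median of all genes to -0.25 between the lines, -0.73 in parental cells and -0.98 in the mutant line, turned COX7A1 (-0.0338) and ATP5G3 (-0.14) between the lines, COX8C (-0.34) and ATP5G3 (-0.41) in parental cells, and UQCR11 (-0.50), COX8C (-0.42) and ATP5G3 (-0.56) in SETD2-mutant cells. The median over guides turned ATP5G3 (-0.0267) between the lines. The cause of these turns was not tested. With the replicate number as a block, 11 members were depleted and 2 enriched between the lines, 26 and 1 in parental cells, 32 and 0 in the mutant line; same-numbered samples did not deviate together. Leaving out the NDUFB6 guide, chosen after its values were seen, gave it -1.28 in parental cells, -2.53 in the mutant line. With only guides of 100 or more mean library counts, 8 complex I genes were depleted between the lines.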
